A study of Mus musculus with 18 samples.

Results

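The effects of AQ and of a Nurr1 transgene on skeletal muscle were set against each other gene by gene in mice on a high-fat diet (HFD). For each gene the AQ effect is AQ-treated minus untreated muscle, and the transgene effect is transgenic minus control muscle, both as differences of mean log2(CPM + 1). The quantity under study is the AQ effect minus the transgene effect, so a negative value marks a gene that lay higher under the transgene than under AQ, each against its own controls. All 12524 of the 12558 genes in the table that reached at least 1 CPM (reads scaled to a common library size) in at least 3 libraries were tested. The 2 effects use 12 of the 18 libraries of the study, and the other 6, from mice on normal chow, entered the same fit and its estimate of the spread. The groups hold 3 libraries each. The AQ arm compares wild-type mice given AQ in the drinking water (AQ libraries) with wild-type mice without it (AQ controls). The transgene arm compares Nurr1 transgenic mice (transgenic libraries) with wild-type animals labelled as the control of the transgenic line (transgene controls). All 4 groups ate the HFD for 10 weeks, so both effects are effects under that diet. The labels give AQ only as an abbreviation. For the promoter that drives the transgene, the sex of the mice and the day or batch of the cohorts, the labels give nothing. They number the libraries as biological replicates and name no animals, so p-values measure the spread between these libraries.

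NURR1, encoded by Nr4a2, is an orphan nuclear receptor of the NR4A family. Its relatives are NUR77 (Nr4a1) and NOR1 (Nr4a3). NR4A receptors bind DNA as monomers at the motif AAAGGTCA, the NBRE, and their genes are immediate early genes that respond within minutes to stimuli such as contraction and beta-adrenergic signalling. In skeletal muscle NR4A receptors are known as regulators of glucose and fatty acid use and of glycogen storage. The comparison asks which genes AQ and the transgene have in common and where the effects differ.

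The 12 libraries held 10404895 to 15476586 reads in genes, so that 3 reads amount to 0.191 to 0.277 CPM. Skeletal muscle markers were present in every library, with summed levels of 157093 to 217840 CPM over the 12 markers listed. The 2 wild-type HFD groups were not alike. Between AQ controls and transgene controls, 559 genes differed at an adjusted p under 0.05 (limma with Benjamini-Hochberg adjustment, the test used throughout), which is 4.46% of those tested. That count was 145 without AQ control replicate 2, 327 without AQ control replicate 1, and 304, 216 and 368 without transgene control replicates 1, 2 and 3. In the other direction, it was 749 without AQ control replicate 3 and 756 with DESeq2. It was 270 with each library's GC trend removed and 319 with the clock score below as a covariate. A score of clock phase, Arntl minus Dbp on the log2 scale, also moved with both effects. It was -3.28 to -2.96 in transgenic libraries and -1.92 to -1.43 in transgene controls, and -4.65 to -3.95 in AQ libraries and -3.93 to -3.43 in AQ controls. Its part in the results was not tested beyond a fit with the score as a covariate. In bulk muscle, fewer cells of a type and less RNA per cell cannot be told apart.

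AQ and the transgene had no gene in common at the strict threshold, and their effects differed in a small set. With the adjusted p under 0.05, AQ changed 6 genes (0.0479% of those tested; 2 higher, 0.016%, and 4 lower, 0.0319%) and the transgene changed 75 (0.599%; 48 higher, 0.383%, and 27 lower, 0.216%). No gene passed that threshold in both arms (0%), and edgeR and DESeq2 on the whole reads also found 0. The difference between the effects passed in 36 genes (0.287%), 10 of them with the AQ effect higher (0.0798%) and 26 with it lower (0.208%). Their mean, which 1 arm alone can carry, passed in 29 genes (0.232%; 20 higher, 0.16%, and 9 lower, 0.0719%). At an unadjusted p under 0.05 in each arm, 108 genes went in the same direction (0.862%; 44 higher, 0.351%, and 64 lower, 0.511%) and 82 in opposite directions (0.655%). When each library was rescaled to the same plain total, the same-direction genes were 76 higher and 34 lower, since all-gene medians then moved to 0.06 and 0.03. At that unadjusted threshold AQ alone gave 1474 genes (11.8%) and the transgene alone 1121 (8.95%). The 190 genes below it in both were 12.9% of the AQ genes and 16.9% of the transgene genes.

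These counts leaned on single libraries. Without AQ control replicate 3 the AQ count was 224, the difference 134 and the mean 104. Without transgene control replicate 1 the AQ count was 29 and the difference 69. AQ changed 0 genes without AQ replicate 2 or 3, and 1 without AQ replicate 1 or AQ control replicate 1 or 2. Of the genes with the same direction, 28 higher and 42 lower were left without transgenic replicate 2, and 19 higher and 53 lower without AQ replicate 3. The transgene count was 45 without transgenic replicate 1 and 42 without transgenic replicate 2. DESeq2 gave 136 genes for the difference.

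Across the 12524 genes the estimates of the 2 effects were nearly unrelated. Pearson's r was 0.0853 and Spearman's rho 0.0352, as a description over genes that share their libraries, and 51.0% of genes had the same sign in both. The weak relation did not hold without transgene control replicate 1, where r was -0.00361, with 130 genes in opposite directions and 39 higher and 49 lower in both. Without AQ control replicate 3 the opposite group held 140 genes. With the clock score as a covariate rho was 0.102 and 54.2% of genes had the same sign. In that fit 59 genes lay higher and 97 lower in both arms at the unadjusted threshold, and 82 went in opposite directions. Spread between libraries lowers such an r, so a low value does not show that the effects themselves are unrelated.

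**Figure D1:**
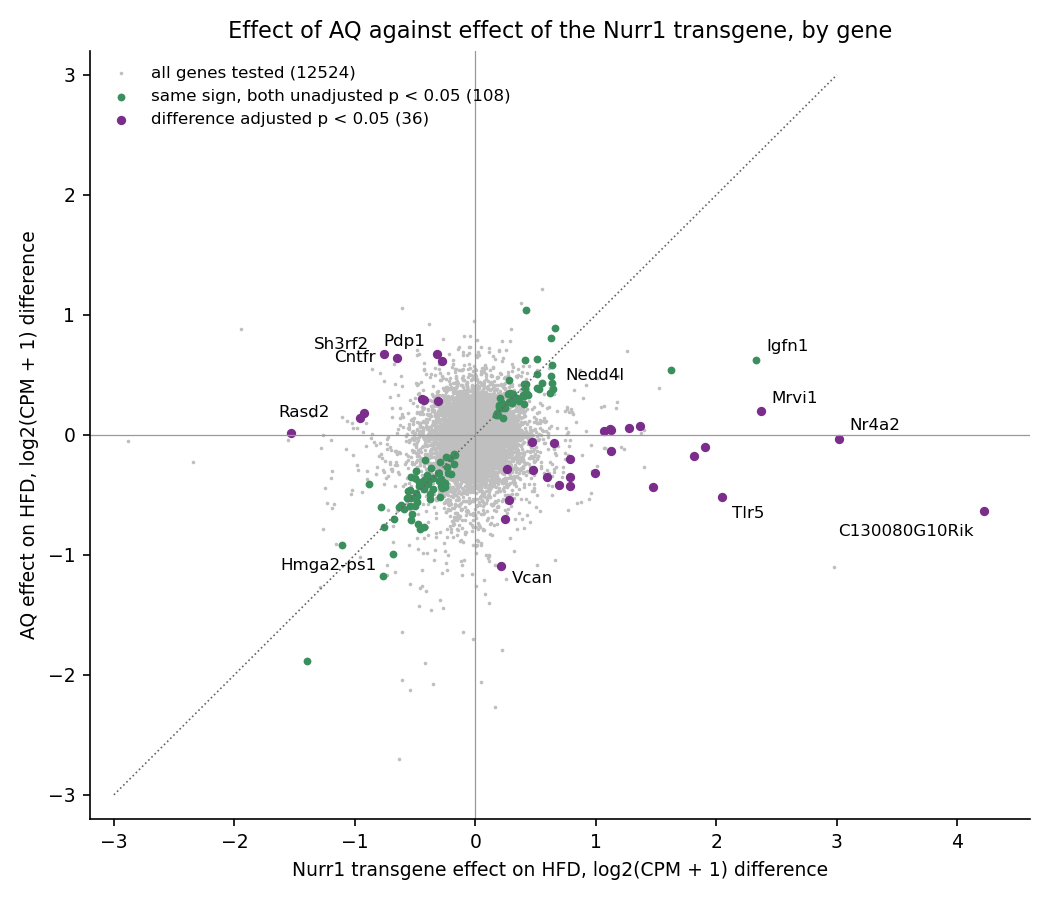
AQ effect (vertical axis) against transgene effect (horizontal axis), both as log2 differences, for 12524 genes in grey, with 1 point per gene. Green points are the 108 genes below an unadjusted p of 0.05 in both arms with the same sign. Purple points are the 36 genes whose 2 effects differ at an adjusted p under 0.05, and the dotted line marks equal effects. Most purple points lie further from 0 along the transgene axis than along the AQ axis.

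Of the 36 genes of the difference, 25 passed the adjusted threshold for the transgene, 1 for AQ and 10 in neither arm. The transgene effect was the larger in size in 30 of the 36, and the AQ effect lay between -0.5 and 0.5 in 27. The signs were opposite in 30, and in 16 of these each effect had an unadjusted p under 0.05, with the transgene effect higher in 9 and lower in 7. Over all genes 51% had the same sign, and 0.655% had opposite signs at that p in both arms. A choice by a large difference favours opposite signs, so nothing is read from the 30 and the 16. In 11 genes the difference was called without each of the 12 libraries and under every other setting tried: Nr4a2, Tlr5, Mrvi1, Syt9, Slc45a3, Sntb1, Rian, Arrb1, Adrbk2, Rasd2 and the gene model C130080G10Rik. The other 25 lost the call without at least 1 library or under another setting. The wild-type HFD groups differed in 3 of the 36 (8.33%, against 4.46% of all genes): Arrb1, Fam53b and Rasd2.

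Nr4a2 itself (chromosome 2, 57106830 to 57124003, GRCm38, minus strand) rose in the transgenic libraries and not under AQ. Its level was 18.8, 30.1 and 19.8 CPM in the transgenic libraries and 1.86, 2.3 and 1.57 CPM in their controls. It was 0.828, 1.26 and 2.03 CPM in AQ libraries and 1.59, 1.49 and 1.07 CPM in AQ controls. The transgenic libraries stood above all the others, and the AQ libraries overlapped their controls. The transgene effect was 3.02 ± 0.27 (SE; limma adjusted p = 7.91e-06), the AQ effect -0.03 ± 0.27, and the difference -3.05 ± 0.38 (95% interval -3.85 to -2.25, limma adjusted p = 0.000865). Reads from the transgene and from the mouse's own Nr4a2 cannot be told apart in these counts.

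The other NR4A genes lay lower in both arms. Nr4a1 was 111, 110 and 128 CPM in transgenic libraries against 184, 258 and 255 CPM in their controls, without overlap. In the AQ arm it was 136, 132 and 136 CPM against 210, 161 and 122 CPM, with overlap. The transgene effect was -0.98 ± 0.22 (limma adjusted p = 0.0557), the AQ effect -0.25 ± 0.22, and the difference 0.73 had an adjusted p of 0.422. Nr4a3 was scarce, at 0.333 to 6.85 CPM, with an AQ effect of -1.08 ± 0.38 (limma unadjusted p = 0.0105) and a transgene effect of -0.73 ± 0.38 (limma unadjusted p = 0.0684). Neither passed the adjusted threshold in either arm. The difference of Nr4a3 changed sign when transgenic replicate 1 was left out.

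Mrvi1, Tlr5, Slc45a3, Syt9 and Sntb1 were, beside Nr4a2, among the genes whose difference was called under every setting. Mrvi1 (chromosome 7, 110868266 to 110982461, minus strand) encodes a substrate of cGMP-dependent kinase that sits with the inositol trisphosphate receptor. It was 49.1, 47 and 56.4 CPM in transgenic libraries against 10.4, 9.21 and 7.54 CPM in their controls, and 13.3, 14.2 and 12.6 CPM in AQ libraries against 10.4, 13.9 and 10.6 CPM. The transgenic libraries stood apart, and the AQ libraries overlapped their controls. The difference was -2.18 ± 0.19 (95% interval -2.58 to -1.77, limma adjusted p = 2.21e-05), from a transgene effect of 2.37 and an AQ effect of 0.20.

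Tlr5 (chromosome 1, 182954788 to 182976044, plus strand), the receptor for bacterial flagellin, had effects of opposite sign. It was 10.8, 18.1 and 11.8 CPM in transgenic libraries against 3.02, 2.22 and 2.17 CPM in controls. Under AQ it was 1.27, 1.33 and 1.29 CPM against 2.42, 1.74 and 2.81 CPM. In both arms the groups did not overlap. The transgene effect was 2.05 ± 0.19 (limma adjusted p = 9.32e-06), the AQ effect -0.52 ± 0.19 (limma unadjusted p = 0.0129) and the difference -2.56 ± 0.26 (95% interval -3.12 to -2.01, limma adjusted p = 0.000117).

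Slc45a3 (chromosome 1, 131962967 to 131982969, plus strand), a membrane transporter, followed Nr4a2. It was 14, 15.4 and 11.2 CPM in transgenic libraries and 2.31 to 3.82 CPM in the other 9, and its difference was -1.99 ± 0.22 (limma adjusted p = 0.000216). Syt9, a synaptotagmin of the family of vesicle calcium sensors, was 13, 9.31 and 9.55 CPM in transgenic libraries and 1.05 to 2.46 CPM in the other 9, with effects of 1.90 (transgene) and -0.10 (AQ) that differed (limma adjusted p = 0.00546). Sntb1 encodes a syntrophin of the dystrophin complex. It was 8.05, 9.25 and 8.82 CPM in transgenic libraries and 3.06 to 5.4 CPM elsewhere, and its difference was -1.31 ± 0.21 (limma adjusted p = 0.008). For all 3 genes the transgenic libraries lay above every other library, and the AQ libraries overlapped the AQ controls. The gene model C130080G10Rik, annotated as antisense and named after its values were seen, was 39.5, 69.9 and 23.2 CPM in transgenic libraries and at most 6.22 CPM elsewhere. It lies on chromosome 2 at 114054335 to 114064868 on the plus strand, next to Actc1 (114047282 to 114053548, minus strand), which was also higher in transgenic libraries, with a transgene effect of 2.97. Whether the counting used strand is not known from the labels, so its value is uncertain.

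**Figure D2:**
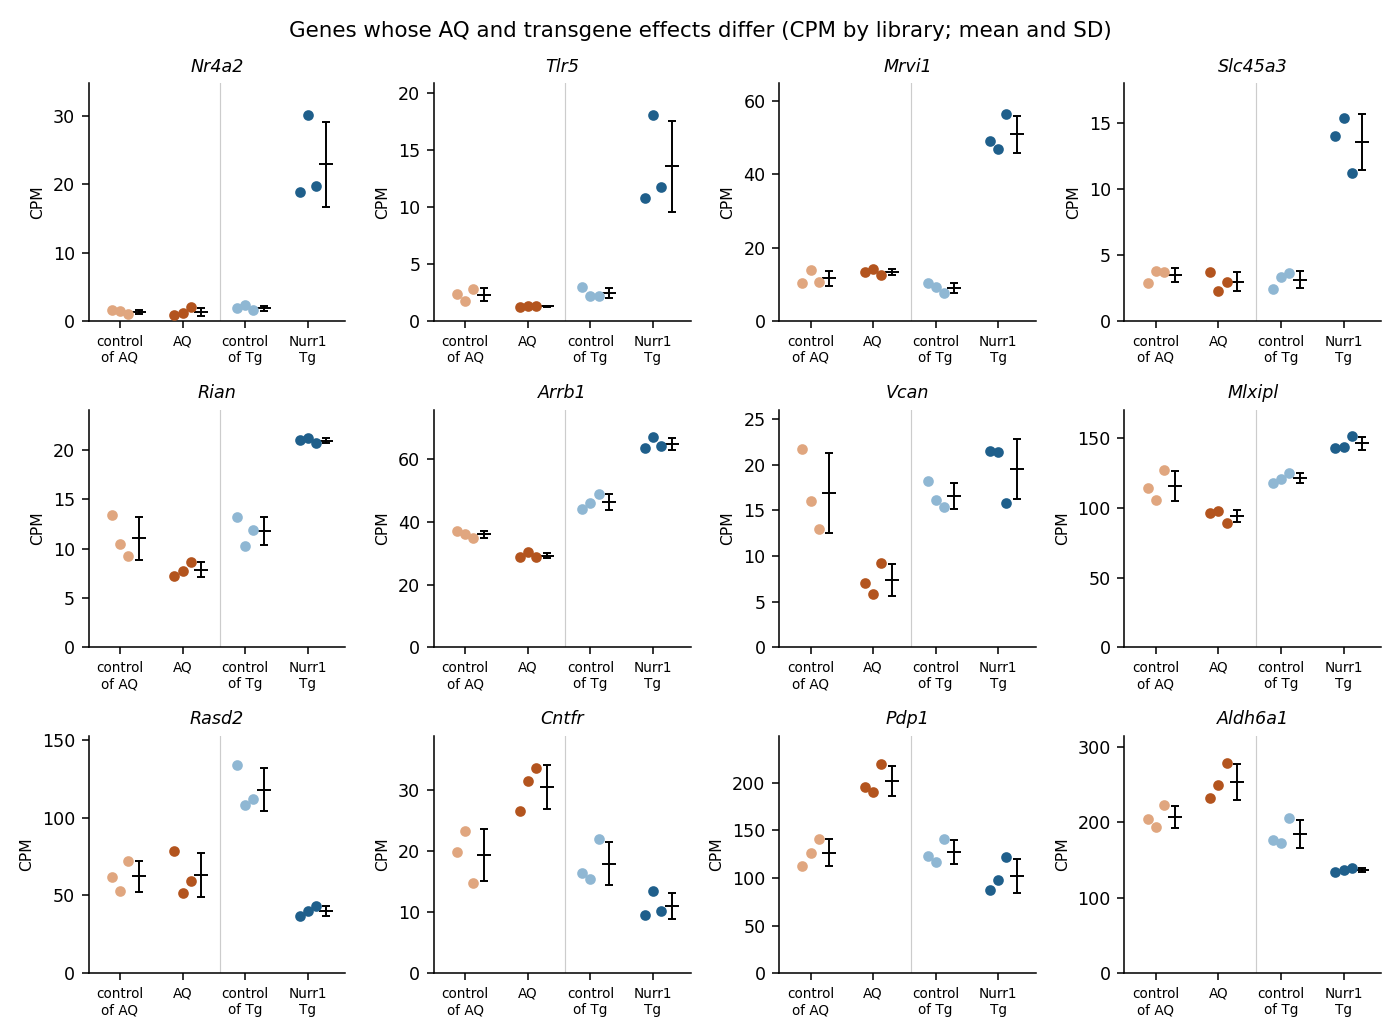
Level in CPM (linear axis) of 12 genes whose AQ effect and transgene effect differed, with 1 point per library and a bar for the mean with its SD in each of the 4 HFD groups of 3 libraries. Nr4a2, Mrvi1 and Slc45a3 are high only in the transgenic group, whereas the group means of Mlxipl, Cntfr, Pdp1 and Aldh6a1 lie on opposite sides of their controls in the 2 arms.

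Mrvi1 and Aimp2 were the 2 of the 36 genes whose promoter window holds the motif that NR4A receptors bind, and their upstream sequences are shown for that reason. The window runs from 250 bases before to 50 bases after the gene start in RefSeq (GRCm38.p6), and 27 of the 36 genes have one. A gene with more than 1 window counts once, if any of them holds the motif. AAAGGTCA, searched on both strands, was found for 2 of these 27 genes (7.41%). It was found for 106 of the 9438 tested genes with a window (1.12%) and for 460 of all 27025 genes with a window (1.7%). Counted by window and not by gene, it lies in 495 of all 32851 windows (1.51%). Each run below is written 5′ to 3′ on the minus strand, the strand of both genes, from upstream toward the start, with the motif in capitals. The Mrvi1 run is chr7:110946188-110946256, and its motif begins 9 bases before a start that lies inside the longer GENCODE gene. The Aimp2 run is chr5:143909840-143909945, and its motif begins 46 bases before the start.
Mrvi1: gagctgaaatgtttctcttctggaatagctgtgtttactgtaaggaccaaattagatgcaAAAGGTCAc
Aimp2: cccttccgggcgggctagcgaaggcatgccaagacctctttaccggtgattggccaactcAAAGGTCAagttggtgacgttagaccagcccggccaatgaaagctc
Both genes rose under the transgene. Aimp2, a scaffold protein of the complex of aminoacyl-tRNA synthetases, was 311, 348 and 332 CPM in transgenic libraries against 153, 160 and 141 CPM, and 117, 123 and 146 CPM in AQ libraries against 202, 123 and 112 CPM. Its difference of -1.26 ± 0.26 (limma adjusted p = 0.0434) was called without 2 of the 12 libraries only. The shorter form AAGGTCA, which the NBRE contains, was found for 5 of the 27 genes (18.5%: Tlr5, Meg3, Aimp2, Mrvi1 and Fam53b). It was found for 366 of the tested genes with a window (3.88%). Of the 37 genes with a window that the transgene raised, 2 held AAAGGTCA (5.41%) and 6 held AAGGTCA (16.2%). Of the 17 with a window that it lowered, 0 held AAAGGTCA. Of the 78 genes with a window and the same direction under AQ and transgene, 1 held AAAGGTCA (1.28%, Celf2) and 3 held AAGGTCA (3.85%). Of the 5 genes with a window that AQ changed, 0 held AAAGGTCA. A match is a description of the letters in the window and not a site.

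Arrb1 (beta-arrestin 1), which uncouples activated receptors from G proteins, was 63.6, 67 and 64.1 CPM in transgenic libraries against 44.1, 46 and 48.9 CPM. Under AQ it was 28.7, 30.3 and 28.7 CPM against 37.1, 36.1 and 34.8 CPM. The groups did not overlap in either arm, and the effects of 0.48 ± 0.08 (limma adjusted p = 0.00883) and -0.29 ± 0.08 (limma unadjusted p = 0.00294) differed by -0.77 ± 0.12 (limma adjusted p = 0.00746). The 2 wild-type HFD groups differed in Arrb1 by -0.36 (limma adjusted p = 0.0253), so the AQ and transgenic libraries also start from unlike controls. Adrbk2, a kinase that phosphorylates activated receptors, went the other way in the transgene arm. It was 5.84, 5.65 and 4.88 CPM in transgenic libraries and 9.63 to 14 CPM in the other 9, and its difference was 1.11 ± 0.19 (limma adjusted p = 0.0166).

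Rasd2 (chromosome 8, 75213944 to 75224113, plus strand), a small Ras-like GTPase, showed the largest difference toward a higher AQ effect among the 10 such genes. It was 37.1, 40 and 43.1 CPM in transgenic libraries against 134, 108 and 112 CPM in their controls, and 51.6 to 78.9 CPM in AQ libraries and AQ controls together. The transgene effect was -1.53 ± 0.15 (limma adjusted p = 2.44e-05), the AQ effect 0.01 ± 0.15 and the difference 1.54 ± 0.21 (95% interval 1.09 to 1.99, limma adjusted p = 0.00258). The transgene controls themselves lay above the AQ controls, by 0.91 on the log2 scale (a control difference of -0.91, limma adjusted p = 0.00312).

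The imprinted noncoding RNAs Rian and Meg3, which lie side by side on chromosome 12 and are expressed from the maternal copy, had effects of opposite sign in the 2 arms. Rian (109603940 to 109661716, plus strand) was 21, 21.2 and 20.7 CPM in transgenic libraries against 13.2, 10.3 and 11.9 CPM, and 7.2, 7.7 and 8.69 CPM in AQ libraries against 13.4, 10.5 and 9.22 CPM. The groups did not overlap in either arm. The transgene effect was 0.79 ± 0.13 (limma adjusted p = 0.00345), the AQ effect -0.43 ± 0.13 (limma unadjusted p = 0.00312) and the difference -1.21 ± 0.18 (95% interval -1.59 to -0.84, limma adjusted p = 0.00427). Meg3 (109541001 to 109571726, plus strand) had a transgene effect of 0.60 (limma adjusted p = 0.0368), an AQ effect of -0.35 (limma unadjusted p = 0.0132) and a difference of -0.95 ± 0.18 (limma adjusted p = 0.0273). Its AQ libraries, at 22, 24.1 and 31.6 CPM, overlapped controls at 38.9, 29.5 and 31.2 CPM, and its transgenic libraries, at 44.9 to 54.8 CPM, did not overlap theirs at 31.6 to 34.2 CPM. Its call was kept without 5 of the 12 libraries. Both RNAs were picked after their values were seen, and neighbouring transcripts of this locus can share reads.

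Among enzymes and regulators of fuel use, 4 of the 36 genes stood out, of which Mlxipl and Gys2 were picked after their values were seen. Mlxipl encodes ChREBP, a transcription factor that responds to glucose metabolites. It was 143, 144 and 152 CPM in transgenic libraries against 118, 121 and 125 CPM, and 96.3, 97.5 and 89.1 CPM in AQ libraries against 114, 106 and 127 CPM, without overlap in either arm. Neither effect passed alone, at 0.27 ± 0.07 (limma adjusted p = 0.134) and -0.29 ± 0.07 (limma adjusted p = 0.112), while the difference of -0.55 ± 0.10 did (95% interval -0.77 to -0.34, limma adjusted p = 0.0241).

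Pdp1, the phosphatase subunit that switches pyruvate dehydrogenase on, was 195, 190 and 220 CPM in AQ libraries against 113, 126 and 141 CPM, without overlap. In the transgenic libraries it was 87, 98.2 and 122 CPM against 123, 117 and 141 CPM, with overlap. The AQ effect was 0.67 ± 0.14 (limma adjusted p = 0.0712), the transgene effect -0.32 ± 0.14 (limma unadjusted p = 0.0371) and the difference 0.99 ± 0.20 (95% interval 0.57 to 1.41, limma adjusted p = 0.0405). Aldh6a1, an enzyme of valine breakdown, was 232, 250 and 279 CPM in AQ libraries against 205, 194 and 223 CPM, and 134, 137 and 139 CPM in transgenic libraries against 176, 172 and 206 CPM. Its groups did not overlap in either arm, and its difference was 0.72 ± 0.13 (limma adjusted p = 0.0212). Gys2, the liver form of glycogen synthase, was 2.36, 1.8 and 1.34 CPM in transgenic libraries and 0.166 to 0.35 CPM in the other 9, a level near that of 3 reads. Its difference was -1.08 ± 0.20 (limma adjusted p = 0.0239). The call was kept without 3 of the 12 libraries for Mlxipl, Pdp1 and Gys2 and without 6 for Aldh6a1.

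The remaining differences named by size were in Ostn, Vcan, Cntfr, Sh3rf2, Fat3, Lrrc30, Fam53b, Myo10 and Arhgef5. Ostn, a peptide hormone secreted by muscle (musclin), was 127, 138 and 116 CPM in transgenic libraries and 34 to 60 CPM in the other 9, with a difference of -1.29 ± 0.23 (limma adjusted p = 0.0212). Vcan, the matrix proteoglycan versican (chromosome 13, 89655312 to 89742509, minus strand), was the 1 gene of the 36 that AQ itself changed at the adjusted threshold. It was 7.01, 5.81 and 9.24 CPM in AQ libraries against 21.7, 16 and 13 CPM, without overlap, and 21.5, 21.4 and 15.8 CPM in transgenic libraries against 18.2, 16.1 and 15.4 CPM, with overlap.

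The AQ effect on Vcan was -1.09 ± 0.18 (limma adjusted p = 0.0267), the transgene effect 0.22 ± 0.18 and the difference -1.31 ± 0.25 (95% interval -1.84 to -0.77, limma adjusted p = 0.0312), called without 4 of the 12 libraries. Cntfr, the receptor subunit for ciliary neurotrophic factor, went the other way. It was 26.5, 31.4 and 33.5 CPM in AQ libraries against 19.9, 23.3 and 14.8 CPM, and 9.46, 13.4 and 10.2 CPM in transgenic libraries against 16.4, 15.4 and 22 CPM. Neither arm overlapped, the effects were 0.64 ± 0.17 and -0.65 ± 0.17, and the difference was 1.30 ± 0.24 (95% interval 0.79 to 1.81, limma adjusted p = 0.0239), kept without 6 of the 12 libraries. Sh3rf2 had effects of 0.68 ± 0.19 (AQ) and -0.76 ± 0.19 (transgene) and a difference of 1.43 ± 0.27 (limma adjusted p = 0.0273). The atypical cadherin Fat3 had a difference of -1.91 ± 0.34 (limma adjusted p = 0.0212). The last 4 genes with a higher AQ effect, Lrrc30, Fam53b, Myo10 and Arhgef5, had differences of 1.09, 0.90, 0.74 and 0.59 (limma adjusted p = 0.0212 to 0.0447), and the controls differed in Fam53b by -0.78 (limma adjusted p = 0.00305).

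Genes that the transgene changed showed no common direction under AQ. Of its 75 genes, 33 (44%) had an AQ effect of the same sign, the median size of the transgene effect was 0.96, and the median AQ effect, signed by the transgene effect, was -0.02. The AQ effect had an unadjusted p under 0.05 in 11 of the 75 (14.7%, against 11.8% of all genes), 4 in the same direction and 7 in the opposite one.

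Among the 10 largest falls that passed the adjusted threshold under the transgene, leaving out gene models and genes whose highest group mean was below 2 CPM, were Shc2, Ctxn3, Tpx2, Cd28 and Sorcs1. Shc2, an adaptor of receptor tyrosine kinases, was 5.02, 5.85 and 7.95 CPM in transgenic libraries and 14.3 to 26.7 CPM in the other 9. Its transgene effect was -1.56 ± 0.23 (limma adjusted p = 0.00169), its AQ effect -0.04 ± 0.23, and its difference of 1.51 had an adjusted p of 0.0641. Ctxn3, a small membrane protein, was 15.6, 13.8 and 18.8 CPM in transgenic libraries and 37.9 to 63.3 CPM in the other 9, with effects of -1.26 (limma adjusted p = 0.00337) and -0.00. In both genes the transgenic libraries lay below all others and the AQ libraries overlapped their controls. Tpx2, a factor of the mitotic spindle, the co-receptor Cd28 and the sorting receptor Sorcs1 fell by 1.36, 1.06 and 1.08 under the transgene, with AQ effects of 0.16, 0.11 and -0.11. Htra4, Odf3l2 and Prss55 fell by 2.88, 2.34 and 1.02, with AQ effects of -0.05, -0.22 and 0.06. Of these 8 genes 0 passed in the difference, whose adjusted p was 0.0641 to 0.242 in limma.

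In the other direction, the 6 genes that AQ changed were Cdh23, Erg, Plin4, Slc35f5, Vcan and the gene model 1500017E21Rik. The transgene effect had the same sign in 5 of the 6 and an unadjusted p under 0.05 in 0.

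Plin4, a coat protein of lipid droplets, was 310, 266 and 236 CPM in AQ libraries against 501, 525 and 383 CPM, and 233, 277 and 265 CPM in transgenic libraries against 319, 288 and 304 CPM. Neither arm overlapped. The AQ effect was -0.79 ± 0.11 (limma adjusted p = 0.0202), the transgene effect -0.23 (limma unadjusted p = 0.0558) and the difference -0.55 (limma adjusted p = 0.189). The AQ controls lay above the transgene controls by 0.62 (limma adjusted p = 0.00569). Erg, a transcription factor of endothelial cells, was 15.6, 17.3 and 16.5 CPM in AQ libraries against 11.2, 10.9 and 10.5 CPM, an AQ effect of 0.56 ± 0.09. In transgenic libraries it was 9.61, 9.31 and 9.55 CPM against 8.67, 8.49 and 9.49 CPM, a transgene effect of 0.09 ± 0.09, and the difference of 0.47 ± 0.13 had an adjusted p of 0.131 in limma. Over the 14 endothelial markers listed, the medians were 0.11 (AQ) and 0.08 (transgene).

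The mean of both effects passed in 29 genes, which need not be moved by both: 20 of the 29 passed for the transgene alone, 3 for AQ alone, and in 12 the effects differed. The sign was the same in 23, and 10 had an unadjusted p under 0.05 in each arm with the same sign. Those 10 were Dock4, Nedd4l, Plcb4, Pthlh, Igfn1 and Apol10b, which lay higher, and Mafk, Ppp1r1a, Dapk1 and Hmga2-ps1, a pseudogene whose reads may come from similar sequences, which lay lower. Since none passed the adjusted threshold in both arms, they are described by their mean effect. That call was kept without each of the 12 libraries in Nedd4l, Pthlh, Igfn1 and Ppp1r1a, without 9 in Mafk, 7 in Dock4, 4 in Plcb4, 3 in Apol10b and 2 in Dapk1 and Hmga2-ps1. With the clock score as a covariate, 15 of the 29 genes kept the call for the mean.

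Dock4 (chromosome 12, 40445952 to 40846874, plus strand), an activator of the GTPase Rac, had equal estimates in both arms. It was 35.9, 34.8 and 49.5 CPM in AQ libraries against 30.9, 28.3 and 23.7 CPM, and 38.9, 42.4 and 35.7 CPM in transgenic libraries against 25, 26.2 and 29.8 CPM. The groups did not overlap in either arm. The effects were 0.51 ± 0.13 and 0.51 ± 0.13 and their mean 0.51 ± 0.09 (limma adjusted p = 0.0213). The interval of the difference was -0.40 to 0.39. Nedd4l, a ubiquitin ligase, was 33.2, 35.5 and 37.3 CPM in AQ libraries against 30.6, 24.2 and 26.1 CPM, and 48.8, 57.6 and 52.8 CPM in transgenic libraries against 32.8, 35.1 and 32.9 CPM. The groups again did not overlap, and the mean effect was 0.51 ± 0.08 (limma adjusted p = 0.00608).

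Pthlh and Igfn1 rose under the transgene and had smaller estimates of the same sign under AQ. Pthlh, the parathyroid hormone-related peptide, was 10.7, 10 and 10.4 CPM in transgenic libraries against 2.83, 2.46 and 2.76 CPM, and 2.87, 4.76 and 5.45 CPM in AQ libraries against 2.21, 2.91 and 2.74 CPM, where the groups overlapped. Its transgene effect was 1.63 ± 0.18 (limma adjusted p = 8.41e-05), its AQ effect 0.54 ± 0.18 (limma unadjusted p = 0.00803), and the difference of -1.09 had an adjusted p of 0.0804 in limma. Igfn1, a protein of the muscle Z-disc, was 125, 209 and 115 CPM in transgenic libraries against 30.6, 35.6 and 19.9 CPM, and 26.6, 58.5 and 45.3 CPM in AQ libraries against 20.7, 28.1 and 31.7 CPM, where the groups overlapped. Its effects were 2.33 ± 0.26 (limma adjusted p = 8.41e-05) and 0.63 ± 0.26 (limma unadjusted p = 0.0267), and the difference of -1.70 had an adjusted p of 0.0641. In neither gene did the 2 effects differ at the threshold.

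Mafk, Ppp1r1a and Trim63 lay lower in both arms. Mafk (chromosome 5, 139791513 to 139802653, plus strand), a small Maf partner of stress-response transcription factors, was 23.8, 23.7 and 20.2 CPM in AQ libraries against 39.1, 35.9 and 29.3 CPM, and 20.2, 16.4 and 21.8 CPM in transgenic libraries against 31.4, 29.5 and 25.5 CPM. The groups did not overlap, the effects were -0.60 ± 0.14 and -0.54 ± 0.14, and their mean was -0.57 ± 0.10 (limma adjusted p = 0.014). The interval of the difference was -0.47 to 0.36. Ppp1r1a, an inhibitor of protein phosphatase 1, was 32.5, 44.5 and 38 CPM in AQ libraries against 54.1, 47.1 and 51.3 CPM, and 34.6, 34.7 and 42 CPM in transgenic libraries against 59, 77.7 and 71 CPM, without overlap. Its mean effect was -0.64 ± 0.09 (limma adjusted p = 0.004).

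Trim63, the muscle ubiquitin ligase MuRF1 known from atrophy, was 205, 203 and 209 CPM in AQ libraries against 325, 316 and 274 CPM, and 180, 148 and 215 CPM in transgenic libraries against 225, 257 and 274 CPM. The groups did not overlap, and the mean effect of -0.52 ± 0.11 missed the threshold (limma adjusted p = 0.0524). Musk, the kinase that organises the neuromuscular synapse, had effects of -0.66 ± 0.18 and -0.53 ± 0.18 and a mean of -0.59 (limma adjusted p = 0.054). It was 35.1, 37.3 and 28.2 CPM in AQ libraries against 47.8, 60.8 and 51.6 CPM, and 19.5, 13.2 and 18 CPM in transgenic libraries against 25.8, 23.5 and 24.1 CPM. The 2 control groups stood further apart in Musk than either treatment from its control (1.09, limma adjusted p = 0.00282).

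**Figure D3:**
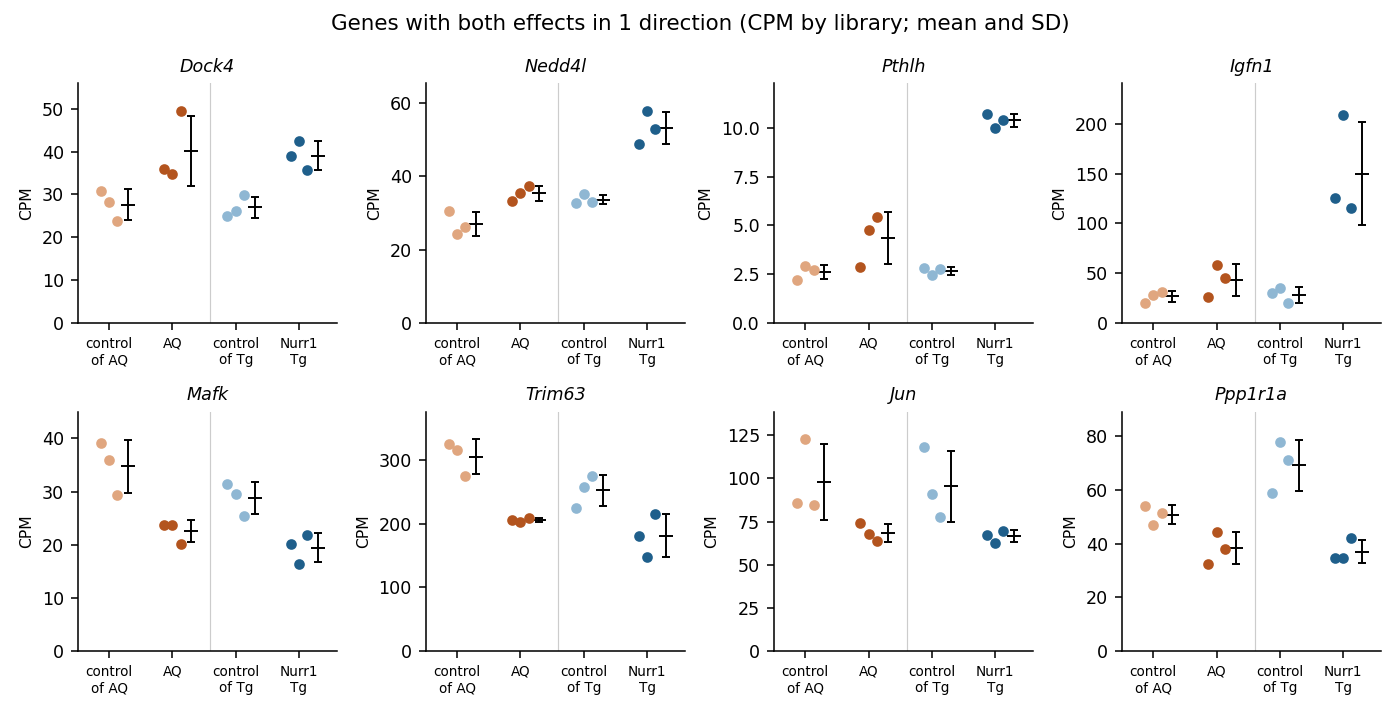
Level in CPM (linear axis) of 8 genes with the same direction under AQ and transgene, with 1 point per library and a bar for the mean with its SD in each of the 4 HFD groups of 3 libraries. Dock4 and Nedd4l lie above their controls in both arms, Mafk, Trim63 and Ppp1r1a below them in both, and Pthlh and Igfn1 stand apart from their controls in the transgene arm and overlap them in the AQ arm.

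The 108 genes with the same direction had median sizes of 0.39 (AQ) and 0.41 (transgene). In 64 of them the groups did not overlap in either arm, which the choice by p in both arms largely fixes. Over all genes, groups did not overlap in 16.3% in the AQ arm and in 14.3% in the transgene arm taken singly, and nothing is read from the 64. By the rule for naming, the 108 also held Kif26b, Slc4a4, Ky, Ppm1f, Gbp3, Snap29 and Stk38l, which lay higher by 0.19 to 0.80, and Asb2, Nek6, Pdlim3 and Etl4, which lay lower with effects of -0.54 to -0.38. Slc4a4, a sodium bicarbonate cotransporter, was 34.8 to 38.3 CPM in AQ libraries against 18.3 to 30.6 CPM and 48.1 to 53.7 CPM in transgenic libraries against 27.5 to 37 CPM, without overlap. Ky, a muscle protein that is lost in kyphoscoliotic mice, had effects of 0.43 ± 0.18 and 0.63 ± 0.18. Asb2, a ubiquitin ligase subunit of muscle, had effects of -0.38 ± 0.12 and -0.42 ± 0.12, with controls that differed by -0.60 (limma adjusted p = 0.00709). Control groups differed in 10 of the 108 (9.26%, against 4.46% of all genes) and in 14 of the 82 genes with opposite directions.

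AQ was also given to mice on normal chow in the same study, where it changed 139 genes (1.11% of those tested). That count was 13 with each library's GC trend removed, 43 at equal plain totals, 52 without a trend in the variance and 280 with DESeq2, and 80 and 90 without transgenic replicate 3 and AQ replicate 1. The chow effect had an r of 0.333 with GC content across genes, and the directions below carry that limit. Of the 108 genes, 57 (52.8%) went in the same direction there as on HFD, against 48.3% of all genes. At an unadjusted p under 0.05 on chow, 11 went in the same direction and 20 in the opposite one (15.5% of all genes had such a p). Pthlh had a chow effect of 0.54 (limma unadjusted p = 0.00808), equal in size to that on HFD, and Ky one of 0.63 (limma unadjusted p = 0.00248). Asb2 had a chow effect of 0.59 (limma unadjusted p = 9.53e-05), opposite to that on HFD, and Plcb4 one of -0.38 against 0.27 on HFD.

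Lists of genes by pathway and cell type are given by their counts and medians beside all genes tested, whose medians were 0.00 (AQ) and -0.00 (transgene). Immediate early genes, which are induced rapidly by stimuli, lay below 0 in all 18 of 18 in both arms, where 49.5% (AQ) and 50.3% (transgene) of all genes did. Their medians were -0.48 (AQ) and -0.57 (transgene), and the median difference was 0.02. In each arm 6 of the 18 had an unadjusted p under 0.05, all lower, where 6.62% and 4.59% of all genes were lower at that p. Klf2 passed the adjusted threshold in the transgene arm (-1.19 ± 0.26, limma adjusted p = 0.0453), and Jun, Jund, Klf4 and Zfp36 had an unadjusted p under 0.05 in both.

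Jun, a subunit of the AP-1 transcription factor, was 74, 67.6 and 63.5 CPM in AQ libraries against 85.7, 123 and 84.5 CPM, and 67.5, 62.8 and 69.4 CPM in transgenic libraries against 118, 90.8 and 77.5 CPM. The groups did not overlap, both effects were -0.49 ± 0.17, and the interval of the difference was -0.51 to 0.52. Zfp36, a protein that speeds the decay of cytokine mRNAs, was 13, 15.6 and 12.8 CPM in AQ libraries against 20.8, 23.8 and 19.9 CPM, and 13.2, 12.9 and 14 CPM in transgenic libraries against 23.2, 19.7 and 28.9 CPM. It too did not overlap, with effects of -0.60 and -0.78. The list leaned on single control libraries: without AQ control replicate 2 its AQ median was -0.22 and 3 members lay above 0, and without transgene control replicate 1 its transgene median was -0.34 with 1 member above 0. The mean deviation of the list was 1.01 in that AQ control, against 0.17 and -0.29 in the other two.

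Interferon-induced genes lay above 0 in 16 of 18 measured members under AQ and in 18 of 18 under the transgene, where 50.5% and 49.7% of all genes did. Their medians were 0.33 and 0.37, with an unadjusted p under 0.05 in 3 and 6 members and an adjusted one in 0 in either arm. All 3 and all 6 were higher, where 5.15% (AQ) and 4.36% (transgene) of all genes were. At the unadjusted p, 0 of the 18 differed between the arms (10.3% of all genes did). Ifit2, Usp18 and Gbp3 had an unadjusted p under 0.05 in both. Ifit2 was 7.52, 7.77 and 8.6 CPM in AQ libraries against 6.22, 6.39 and 6.82 CPM, and 6.06, 7.65 and 5.68 CPM in transgenic libraries against 4.69, 4.76 and 4.33 CPM, without overlap. Without transgenic replicate 2, whose summed level was 188 CPM against 120 and 119 CPM in the other two, the transgene median was 0.17 with 14 of 18 above 0. Without AQ control replicate 1 and without AQ replicate 3 the AQ median was 0.24 and 0.23.

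**Figure D4:**
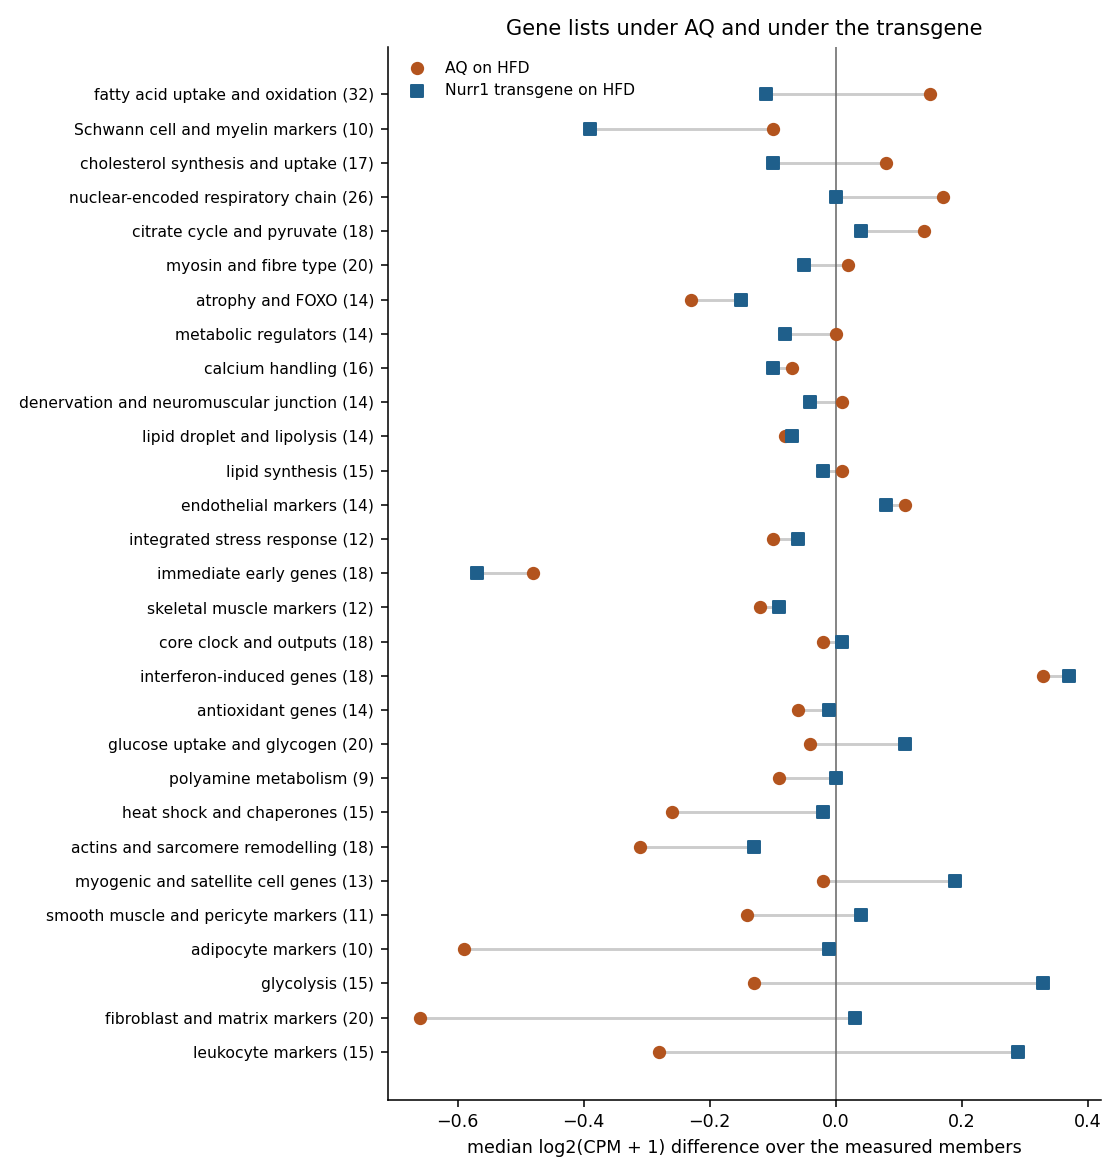
Median AQ effect and median transgene effect (log2, horizontal axis) for each gene list with at least 8 measured members, ordered by the median difference between the effects. Immediate early genes lie low in both arms at -0.48 and -0.57, interferon-induced genes lie above 0 in both, and matrix, leukocyte and glycolysis genes have the most negative differences.

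Glycolysis genes mostly lay above 0 under the transgene and below 0 under AQ. Of 15 measured enzymes, 12 had a transgene effect above 0 and 3 had an AQ effect above 0, and the medians were 0.33 and -0.13. At an unadjusted p under 0.05 the transgene gave 10 higher and 1 lower and AQ gave 0, where 4.36% of all genes were higher in the transgene arm. The difference had an unadjusted p under 0.05 in 11 of the 15 (10.3% of all genes), 10 lower and 1 higher, and an adjusted one in 0, with a median of -0.52. Summed over the list, transgenic libraries held 44896, 47520 and 48100 CPM against 31630, 38825 and 37861 CPM, without overlap, and AQ libraries 27535, 30188 and 27339 CPM against 35438, 32064 and 27300 CPM, with overlap.

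Pgam2, the muscle phosphoglycerate mutase, was 2846, 3733 and 3104 CPM in transgenic libraries against 1904, 2577 and 2402 CPM, and 1708, 1769 and 1627 CPM in AQ libraries against 2160, 2123 and 1504 CPM. Its difference was -0.66 ± 0.20 (limma unadjusted p = 0.00419, adjusted p = 0.213). Eno3, the muscle enolase, was 8265, 9085 and 8822 CPM in transgenic libraries against 5023, 6755 and 6727 CPM, and 5048, 5509 and 5342 CPM in AQ libraries against 7001, 6435 and 5041 CPM, with a difference of -0.72 ± 0.23 (limma adjusted p = 0.238). For both enzymes the transgenic libraries lay above all others. Ldhb, the lactate dehydrogenase subunit of oxidative tissue, was 1 of the 3 members with a transgene effect below 0. It was 95.7, 92.2 and 73.7 CPM in transgenic libraries against 121, 106 and 107 CPM, with a difference of 0.57 (limma adjusted p = 0.275). The counts leaned on 3 libraries: the difference had an unadjusted p under 0.05 in 6 members without transgene control replicate 1 or without AQ control replicate 1 and in 7 without AQ replicate 1, and the transgene effect in 4 without transgene control replicate 1. With the clock score as a covariate those counts were 8 and 4.

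Fatty acid uptake and oxidation genes leaned the opposite way with small sizes. Of 32 genes, 24 had an AQ effect above 0 and 5 a transgene effect above 0, with medians of 0.15 and -0.11 and a median difference of 0.27. At the unadjusted p under 0.05 there were 6 under AQ (2 higher, 4 lower), 1 under the transgene and 7 for the difference (5 higher, 2 lower), and 0 passed adjusted. Over all genes 5.15% were higher and 6.62% lower under AQ at that p, and 8.95% had it under the transgene. For the difference 4.73% were higher and 5.52% lower. The lean of this list is thus one of signs, and its AQ genes at that p were mostly lower. Echs1, an enzyme of mitochondrial beta-oxidation, had effects of 0.30 and -0.15 and a difference of 0.46 (limma adjusted p = 0.166). Ucp3, a mitochondrial carrier, ran against the list at 157, 128 and 155 CPM in AQ libraries against 355, 452 and 170 CPM, and 243, 223 and 150 CPM in transgenic libraries against 152, 156 and 85.5 CPM. Its difference was -1.70 (limma adjusted p = 0.155), and its controls differed by 1.24 (limma adjusted p = 0.0423). With the clock score as a covariate the transgene median of this list changed sign to 0.10, and without transgene control replicate 1 it was -0.05. Respiratory chain genes encoded in the nucleus lay above 0 in 25 of 26 under AQ (median 0.17) and had a transgene median of 0.00. At the unadjusted p 1 of 26 differed (10.3% of all genes did). That AQ median was 0.07 without AQ control replicate 3. Over all genes 50.5% lay above 0 under AQ. The AQ controls also lay above the transgene controls in 26 of the 26 genes (median 0.21). Between the controls 14 had an unadjusted p under 0.05 (53.8%, against 20.2% of all genes). On chow the AQ effect on this list was below 0 in 19 of 26 (median -0.05).

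**Figure D5:**
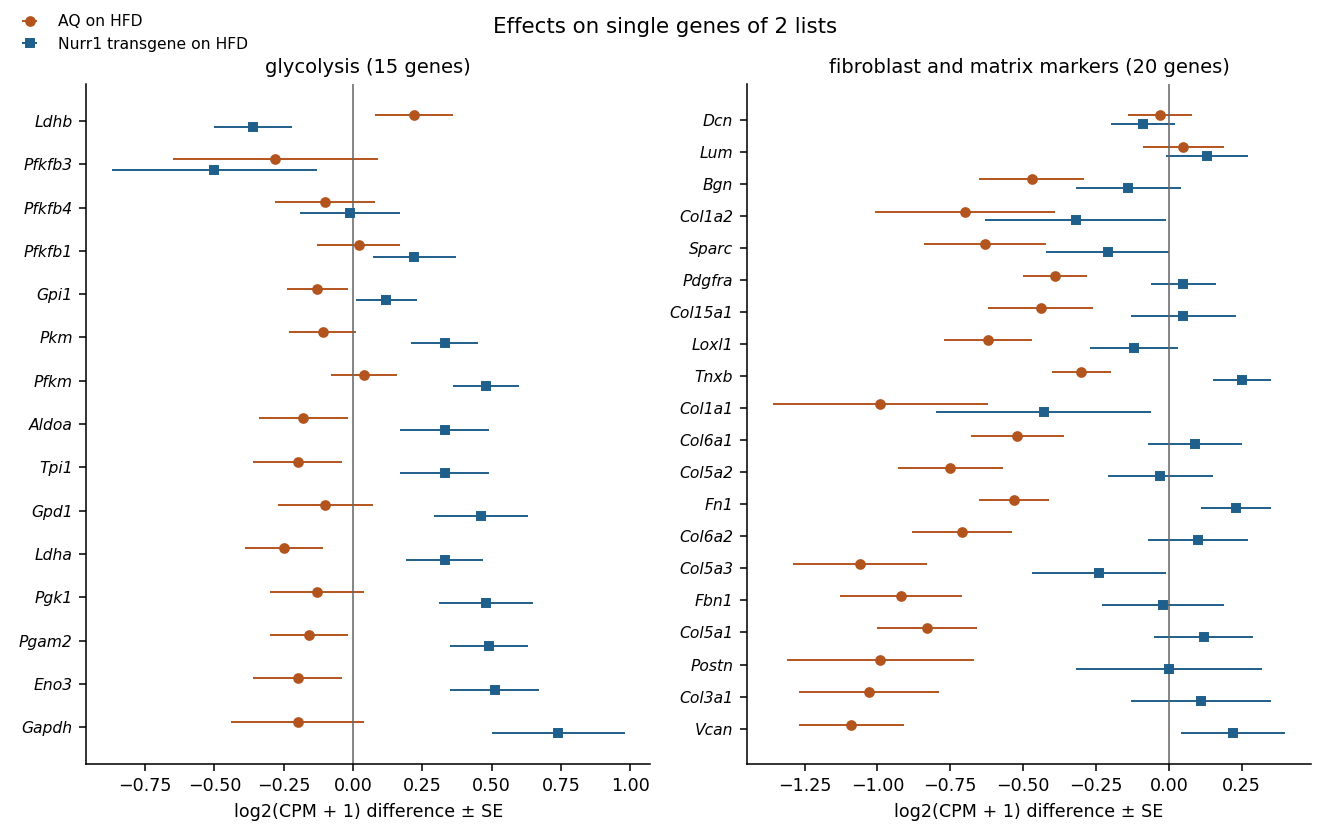
AQ effect and transgene effect (log2, with SE) for each of 15 glycolysis genes and 20 fibroblast and matrix markers. For glycolysis 12 of 15 transgene effects lie above 0 and 12 of 15 AQ effects below it, and for matrix markers 19 of 20 AQ effects lie below 0 while the transgene effects lie on both sides.

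Markers of other cell types were measured beside these results. Fibroblast and matrix markers lay below 0 under AQ in 19 of 20 (median -0.66), 18 of them at an unadjusted p under 0.05 and Vcan past the adjusted threshold. Over all genes 6.62% were lower under AQ at that unadjusted p. Under the transgene 11 of 20 lay above 0 (median 0.03), and the difference had an unadjusted p under 0.05 in 13, all lower (5.52% of all genes), and an adjusted one in Vcan alone. Their summed level was 2318 to 2896 CPM in AQ libraries against 3003 to 5282 CPM in AQ controls, without overlap, and 3961 to 5257 CPM in transgenic libraries against 4090 to 6427 CPM, with overlap. Col1a1, a chain of type I collagen, was 130, 170 and 228 CPM in AQ libraries against 673, 303 and 193 CPM and 694, 440 and 435 CPM in transgenic libraries against 1080, 542 and 562 CPM. Vcan fell with most of this list but not with all of it: Dcn and Lum had AQ effects of -0.033 and 0.055. The part that the number of such cells has in the Vcan call was not tested. On the 20 matrix markers the AQ controls also lay below the transgene controls in 16 (median -0.35). Of these markers, 4 passed the adjusted threshold between the controls (20%, against 4.46% of all genes). On chow the AQ effect on the list went the other way, above 0 in 19 of 20 (median 0.29). There 9 were higher at an unadjusted p under 0.05, where 1094 of all 12524 genes were, with the GC limit given above.

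Leukocyte markers lay below 0 in 14 of 15 measured members under AQ (median -0.28) and above 0 in 14 of 15 under the transgene (median 0.29). At the unadjusted p under 0.05 there were 4 under AQ, 0 under the transgene and 7 for the difference, with a median difference of -0.59, and 0 passed adjusted. All 4 and all 7 were lower, where 6.62% (AQ) and 5.52% (difference) of all genes were. Over all genes 8.95% had such a p under the transgene. The summed level was 201 to 217 CPM in AQ libraries, 215 to 274 in AQ controls, 277 to 363 in transgenic libraries and 220 to 365 in transgene controls, so the transgenic group overlapped its controls. Without transgene control replicate 1 the transgene count was 11 and the difference count 11, and without transgene control replicate 2 or 3 or transgenic replicate 2 the difference count was 4. On chow the AQ effect on leukocyte markers was above 0 in 15 of 15 (median 0.45), with the GC limit given above. Adipocyte markers had medians of -0.59 under AQ, with 6 of 10 lower at an unadjusted p under 0.05 (6.62% of all genes), and -0.01 under the transgene. Their summed level was 258 to 346 CPM in AQ libraries against 364 to 425 CPM, without overlap, and 344 to 386 CPM in transgenic libraries against 268 to 541 CPM. By the mean log2 deviation of the list, AQ replicate 1 overlapped the controls: it was at -0.06, the other two AQ libraries at -0.88 or lower, and AQ controls at -0.08, 0.13 and 0.28. Plin4 and Angptl4 also lay lower under AQ, with effects of -0.79 and -1.79. Library by library, Plin4 followed the markers only in part. AQ replicates 2 and 3 were low in both, but in AQ replicate 1 Plin4 too lay below all AQ controls. Transgene control replicate 1 held the highest marker sum, 541 CPM, with less Plin4 than any AQ control. The part of fat cells in Plin4 and Angptl4 was not tested.

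Smooth muscle and pericyte markers had medians of -0.14 (AQ) and 0.04 (transgene), and Schwann cell and myelin markers -0.10 and -0.39. Heat shock and chaperone genes lay below 0 in all 15 under AQ, with a median of -0.26 and 5 at an unadjusted p under 0.05 (6.62% of all genes were lower at it). Their transgene median was -0.02, and without AQ control replicate 2 their AQ median was -0.10 with 0 at that p. Atrophy and FOXO genes had medians of -0.23 and -0.15. In each arm 5 of 14 had an unadjusted p under 0.05 (11.8% and 8.95% of all genes), and Trim63 was the 1 that had it in both. Citrate cycle and pyruvate genes lay above 0 in 18 of 18 under AQ (median 0.14), where 50.5% of all genes did, and had a transgene median of 0.04. The AQ controls lay above the transgene controls in 14 of the 18 (median 0.22), and on chow the AQ median was -0.08.

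In Hk2, Lpin1, Myod1, Myf6, Smox and Actc1 the difference missed the threshold. Hk2, the muscle hexokinase, rose under the transgene by 0.51 (limma adjusted p = 0.00565) with an AQ effect of -0.01, and the difference of -0.52 had an adjusted p of 0.0812. Lpin1, a phosphatidate phosphatase and co-regulator, had effects of -0.36 (AQ) and 0.36 (transgene), with a difference of -0.72 (limma adjusted p = 0.0792). Myod1, a myogenic transcription factor, had effects of 0.41 and -0.61, with a difference of 1.02 (limma adjusted p = 0.0901), and its relative Myf6 had effects of -0.34 and 0.35, with a difference of -0.69 (limma adjusted p = 0.116). Smox, an oxidase of spermine, rose under the transgene by 1.40 (limma adjusted p = 0.0228), with an AQ effect of 0.04, and its difference of -1.36 had an adjusted p of 0.186. Actc1, the cardiac actin, rose under the transgene by 2.97 (limma adjusted p = 0.0394), from 296, 395 and 351 CPM to 2444, 4985 and 1651 CPM. In AQ controls it was 831, 132 and 90 CPM, so 1 library stood far from the other two, and the difference of -4.08 had an adjusted p of 0.0751 in limma. Reads of Actc1 can be shared with the near-identical Acta1, and its value is uncertain for that reason.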

How the data were processed

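RNA-seq of mouse skeletal muscle comprised 18 libraries in 6 groups of 3, of which the 12 libraries of the 4 HFD groups make up the comparison and the 6 on chow share the fit. The authors deposited 1 table of normalized signal, given as CPM per gene. Per the submitters' processing notes TopHat2 2.0.12, edgeR and the build GRCm38 (mm10) were used; of the counting tool, its strand setting and the read filters the labels say nothing. The columns of the deposited table sum to 929993 to 1071538, so the values are CPM on scaled library sizes. All values (100%) are whole multiples of 1 read within 1e-06, which gives 10404895 to 16082994 reads per library and 3 reads as the floor; these cover counting error only.

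All 18 libraries were fitted together with limma 3.58.1 in R 4.3.3 (lmFit, eBayes with trend, 12 residual degrees of freedom) on log2(CPM + 1), for genes of at least 1 CPM in at least 3 libraries, two-sided, with Benjamini-Hochberg adjustment over all 12524 genes and a threshold of 0.05. A fold change on this scale understates that of low genes. The design had assumed a CPM unit; the same test was kept for the scaled values. As alternatives, the whole reads went into edgeR 4.0.16 and DESeq2 1.42.0. On simulated data the difference recovered 26.5%, 69.7% and 100% of genes changed 1.5-, 2- and 4-fold, with 5 false calls among 12467 genes. The changed genes were all above 5 CPM and changed under AQ only. The 1.5- and 4-fold changes were all rises and the 2-fold ones all falls. Recovery of genes of lower level was not measured. GC content came from GENCODE M21 for 12489 genes (12024 by symbol, 465 by an older one), and promoters from RefSeq. The lowest chi-square per degree of freedom between libraries of a group was 4.26, so none was a duplicate.

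Genes named are the 10 largest differences each way past the threshold with a highest group mean of at least 2 CPM (gene models left out), the 10 same-direction genes each way with the smallest larger p and groups that do not overlap, every gene AQ changed, the largest transgene changes, the NR4A genes, and up to 3 members of each list. Other names were chosen after their values were seen. Members and lists were chosen with earlier results of these data known.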

Additional observations from a re-analysis of the deposited data

How the results depend on the processing

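The count of genes whose effects differ, 36, was 136 with DESeq2, which keeps 35 of the 36. DESeq2 also gave 143 genes for AQ, 171 for the transgene and 172 for the mean effect. The fit of only the 12 HFD libraries gave 20 for AQ and 66 for the mean, the clock score as a covariate 16 for AQ, rescaling to the same plain total 46 for the mean, and edgeR 19 for the mean. Same-numbered libraries of different HFD groups hardly deviated together (median r 0.0172, -0.102 to 0.147 over 18 pairs). Over all groups the median r was 0.0469 for same-numbered pairs and -0.0181 for the others. A low r over genes cannot exclude a pairing by number. With the replicate block the counts were 49 for AQ, 44 for the mean, 42 for the difference and 87 for the transgene. No other setting that keeps all 12 libraries moved these 4 counts by over 1.5 times (the counts for the wild-type groups and for AQ on chow moved further, as given beside them), and the count of genes changed in both arms was 0 in every setting. A like count can hold other genes. With the clock score as a covariate, 15 of the 29 genes of the mean and 50 of the 75 genes of the transgene kept their call. Leaving out 1 library gave 14 to 134 genes for the difference, 0 to 224 for AQ, 42 to 92 for the transgene, 10 to 104 for the mean and 0 to 0 for both arms, with r from -0.00361 to 0.142. For the difference it was 134 without AQ control replicate 3 and 69 without transgene control replicate 1. It was 14 without transgenic replicate 2, transgene control replicate 3 or AQ replicate 2, 16 without transgenic replicate 1, 19 without AQ control replicate 1, 21 without transgene control replicate 2 or AQ replicate 3, and 22 without AQ replicate 1. The difference of Alas2, -0.34 to 0.05 with 1 library left out, reversed to 0.05 without transgenic replicate 1, 0.00 without AQ control replicate 1 and 0.03 without AQ replicate 1, and that of Nr4a3, -0.91 to 0.13, to 0.13 without transgenic replicate 1. The cause was not tested. Of single genes that were called, 527 gene-and-setting values kept their call and 69 lost it, and with 1 library left out 307 kept it and 242 lost it. Depth limits genes near 3 reads, such as Gys2.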
